A study of Homo sapiens with 13 samples.

Results

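The transcriptome described here is that of HuT78 cells kept for 72 hours with DMSO, the solvent in which drugs are dissolved, and with no active compound. HuT78 is an established human cell line that grew out of the blood of a patient with Sezary syndrome, a leukaemic form of cutaneous T cell lymphoma. The profile rests on 2 of the 13 libraries of the series, DMSO replicate 1 and DMSO replicate 4, and the other 11 come from HuT78 treated for the same time, 4 with 10 nM chaetocin, 3 with 10 nM of the compound F5446 and 4 with 1 µM romidepsin. Chaetocin and F5446 are inhibitors of histone methyltransferases such as SUV39H1, and romidepsin inhibits histone deacetylases. The other 11 libraries serve here as a range for levels seen in the same line, and no treatment was compared with vehicle. All samples are 1 cell line, and the labels do not say whether the replicates were separate cultures, so the spread between the 2 vehicle libraries may be technical. Total RNA was purified on columns with a DNase step, and libraries were made with an Ovation kit made for human RNA from fixed tissue.

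Sezary cells are malignant CD4+ helper T cells that circulate in blood and home to skin. Like other mature T cells they carry a T cell receptor with its CD3 chains, and they depend on transcription factors such as GATA3 that set the helper type 2 programme. In the clinic they are recognised by loss of surface proteins such as CD7 and CD26 (encoded by DPP4) and by gain of others, among them KIR3DL2, an inhibitory receptor of natural killer cells. TOX, a nuclear factor of T cell development, and TWIST1, a factor of mesenchymal development, are further markers of the disease, and CD74 is the invariant chain that guides class II antigen presentation.

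The table holds 45744 genes, and the vehicle libraries hold 21104305 counts (replicate 1) and 20128474 counts (replicate 4), against 19901052 to 30816188 in the other 11. Levels are given as CPM, the count of a gene per 1000000 counts of its library, and levels of different genes are compared only after division by exonic length (TPM, CPM per kilobase rescaled to the same sum in every library). Where a gene is said to lead a list, the order is by CPM, which favours long RNAs. A gene counts as detected where its mean over the 2 libraries is at least 1 CPM. A count of 0 allows up to 3 counts, which is 0.142 CPM in replicate 1 and 0.149 CPM in replicate 4, for counting error only.

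The vehicle libraries were not alike in every respect. The 13 coding genes of the mitochondrial genome took 11.5% of counts in replicate 1 and 6.72% in replicate 4, within the 5.03% to 15.4% of the other 11. Replicate 4 also held 857 genes that were counted in no other library of the series, with a median of 6 counts each, while replicate 1 held 199, with a median of 4. In the other 11 libraries this number ran from 122 to 1379, and the highest belonged to chaetocin replicate 2. Olfactory receptors, which serve smell in the nose, summed to 1.47 CPM over 5 of the 400 genes in replicate 1 and to 17.5 CPM over 44 genes in replicate 4, above the 0.852 to 10.3 CPM of the other 11. The coding genes found in replicate 4 alone included CRYAB (21 counts), a lens and muscle chaperone, and GCG (16 counts), the glucagon gene of the pancreas. The origin of these low counts was not tested, and CPM levels of single genes are given in both libraries unless a mean is named.

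Genes of T cell identity were taken first, and genes of alpha-beta CD4+ T cells were expressed. Of 19 measured genes of the T cell receptor complex and its coreceptors 14 were detected, of 20 signalling genes 18, and of 24 T lineage transcription factors all 24. Together 56 of these 63 genes (88.9%) were detected, against 56.7% of all protein-coding genes (11410 of 20124). The lists were chosen with earlier results of these data known, so the share describes them and does not test the T cell label.

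PTPRC, the CD45 phosphatase of all white cells, stood at 392 and 513 CPM in replicates 1 and 4. The constant segments of the receptor were at 144 and 278 CPM for TRAC (alpha) and 224 and 206 CPM for TRBC2 (beta). CD3E, a signalling chain of the receptor, was at 174 and 201 CPM, and CD3D and CD3G lay between 93.4 and 116 CPM in both libraries. Per length TRBC2 was highest of this list, with a mean of 831 TPM, followed by TRAC with 648 TPM, although the 410 and 886 TPM of TRAC straddled TRBC2's 819 and 844. CD4, the coreceptor of helper cells, was at 182 and 237 CPM, while CD8A was at 2.99 and 2.29 CPM and CD8B at 0.0948 and 0 CPM. Per length CD4 was at 110.1 and 161 TPM and CD8A at 2.28 and 1.95 TPM, so the coreceptor present was that of helper cells. TRBC1, the other beta constant segment, was not analysed here.

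Several surface genes of mature T cells were low or had no count. CD7 and CD27 had no count in either vehicle library. In the reference annotation 39.1% of the exonic bases of CD27 are shared with another gene, and the part of this in its zero was not tested. CD28, the main costimulatory receptor, had 0.237 and 0 CPM. CD2, an adhesion receptor, was at 7.11 and 6.86 CPM, and CD5, a brake on receptor signalling, at 1.33 and 4.27 CPM. All 5 are surface proteins used to recognise T cells and were named for their low values, with none over 10 CPM in either library. Other surface genes of the list were higher, such as CD6 at 160 and 233 CPM.

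Counts over the alpha variable segments were concentrated in 1 gene. Over 45 alpha variable segments, TRAV8-6 held 1911 of 2451 counts in replicate 1 (78.0%, exact Clopper-Pearson 95% interval 76.3% to 79.6%) and 2930 of 3685 in replicate 4 (79.5%, 78.2% to 80.8%). The same segment thus led in both libraries, with intervals that overlap and cover counting error only. Beta variable segments had 60 and 47 counts in all over 38 genes, led by TRBV7-4 with 19 and 27 counts. In the reference annotation 14 of 49 functional beta segments have no gene in the table used here, so the beta segment of the line was not analysed here. Gamma segments had 257 and 266 counts. TRGV5 led in replicate 1 (115 and 73 counts) and TRGV3 in replicate 4 (86 and 98 counts). The 3 delta segments had none. TRDC, the delta constant gene, had 0 and 0.447 CPM. Among joining segments, TRAJ22 was at 1.71 and 3.58 CPM and TRAJ10 at 1.66 and 3.43 CPM, higher in replicate 4 as were TRAC and TRAV8-6.

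Of the 20 genes listed for receptor signalling, PLCG1, a phospholipase, was at 192 and 266 CPM. CD96 was at 199 and 157 CPM, and the adaptor LCP2 (SLP-76) at 163 and 182 CPM. The kinases LCK (95.3 and 123 CPM) and ZAP70 (78.5 and 86.3 CPM), which start the cascade, were also present. LAT, the adaptor that ZAP70 phosphorylates, had no count in either library. In the reference annotation 49.7% of the exonic bases of LAT are shared with another gene, and HTSeq by default leaves out reads that fall in several genes. Whether this bears on the 0 of LAT was not tested. TXK, a Tec kinase, was the other gene of the list that was not detected (0.284 and 0.149 CPM).

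Among lineage factors GATA3 led on both scales, with 578 and 722 CPM and a mean of 559 TPM. RUNX3, a factor of CD8+ and killer cells as well, was at 385 and 375 CPM, and ETS1 at 320 and 380 CPM. LEF1 and TCF7, the partners of the Wnt pathway in thymocytes, were at 237 and 226 CPM and at 112 and 93.4 CPM. At the low end stood SATB1, a chromatin organiser of thymocytes, with 6.78 and 13.7 CPM, and KLF2, which keeps naive T cells in circulation, with 8.96 and 6.26 CPM. In mean TPM the factors ran from GATA3 (559) through RUNX3 (247) to SATB1 (2.29).

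**Figure D1:**
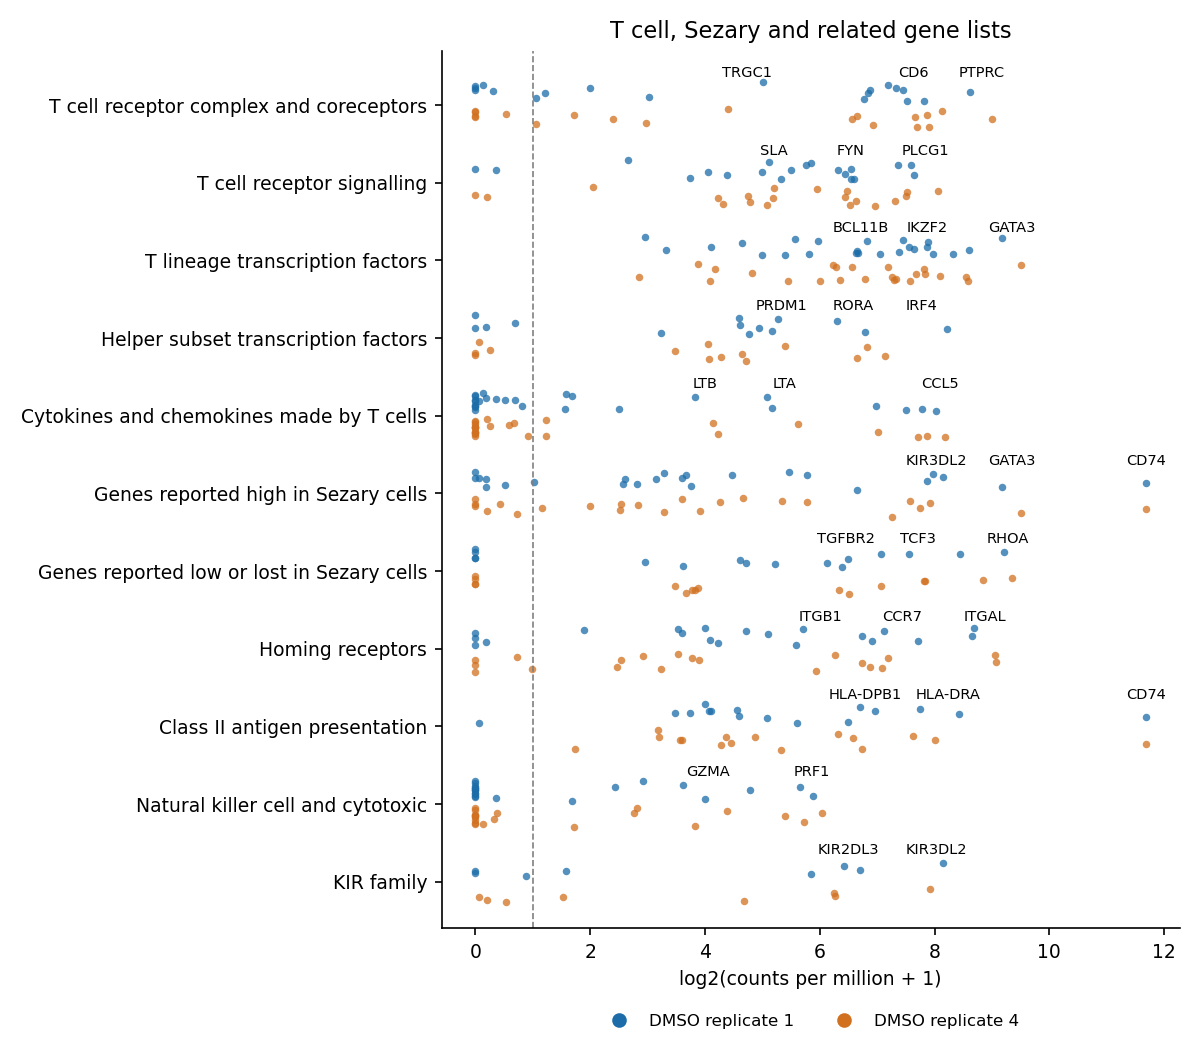
Levels of 11 gene lists as log2(CPM + 1), 1 point per gene and library (blue, DMSO replicate 1; orange, DMSO replicate 4), with some members named above their mean and a dashed line at 1 CPM. All T lineage factors and all 18 detected signalling genes lie right of the line, while cytokines and natural killer genes spread to 0.

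Of 14 factors that set helper subsets, 10 were detected (71.4%), against 56.7% of all protein-coding genes. IRF4, a factor of activated T cells, was at 295 and 140 CPM, STAT3 at 110 and 99.7 CPM, and RORA at 78.2 and 112 CPM. EOMES, a factor of killer and memory cells, was at 35.1 and 18.4 CPM. Other factors of helper subsets were near 0. TBX21 (helper type 1) had 0.142 and 0 CPM, FOXP3 (regulatory cells) had 0.616 and 0.199 CPM, and MAF had 0 and 0.0497 CPM.

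Cytokine genes were mixed, with 11 of 26 detected (42.3%, against 56.7% of all protein-coding genes) and 7 without a count. CCL5, a chemokine of memory T cells, was at 258 and 288 CPM, IL32 at 219 and 232 CPM, and TGFB1, which the table lists under another name (AC011462.1), at 180 and 209 CPM. IL10, an inhibitory cytokine, was at 35.1 and 17.6 CPM. The type 2 cytokines were low, with IL13 at 1.94 and 0.894 CPM, IL4 at 2.23 and 0 CPM, and IL5 at 0.0948 and 0.149 CPM. IFNG, the type 1 cytokine, had 4.64 and 1.34 CPM. CCL4, CXCL13 and IL17A were among the genes with no count.

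The 5 genes chosen as markers covered a wide span of ranks. CD74 was at 3298 and 3281 CPM (3289.5 ± 11.4, mean ± SD, n = 2), rank 19 of all genes in replicate 1 and 18 in replicate 4. GATA3 was at 578 and 722 CPM (650.0 ± 102), ranks 199 and 157, and KIR3DL2 at 283 and 240 CPM (262 ± 29.9), ranks 491 and 692. TOX was at 99.8 and 152 CPM (126 ± 36.7), ranks 1971 and 1291. TWIST1 was at 8.81 and 11.1 CPM (9.97 ± 1.64), ranks 8922 and 8341. Thus CD74 was among the most abundant RNAs of the cell. By CPM, TWIST1 lay below the median of detected protein-coding genes (27.4 CPM). Per length its mean of 14.5 TPM was near their median of 15.6 TPM. Per length the order was CD74 (mean 3035 TPM), GATA3 (559), KIR3DL2 (408), TOX (90.5) and TWIST1 (14.5), and no neighbours in that order overlapped between libraries. In the other 11 libraries GATA3 ran from 529 to 1455 CPM, TOX from 88.1 to 167, KIR3DL2 from 229 to 334 and TWIST1 from 6.47 to 15.5, ranges that hold both vehicle values. CD74 ran there from 3613 to 5011 CPM, above both vehicle libraries, a difference that was not tested.

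**Figure D2:**
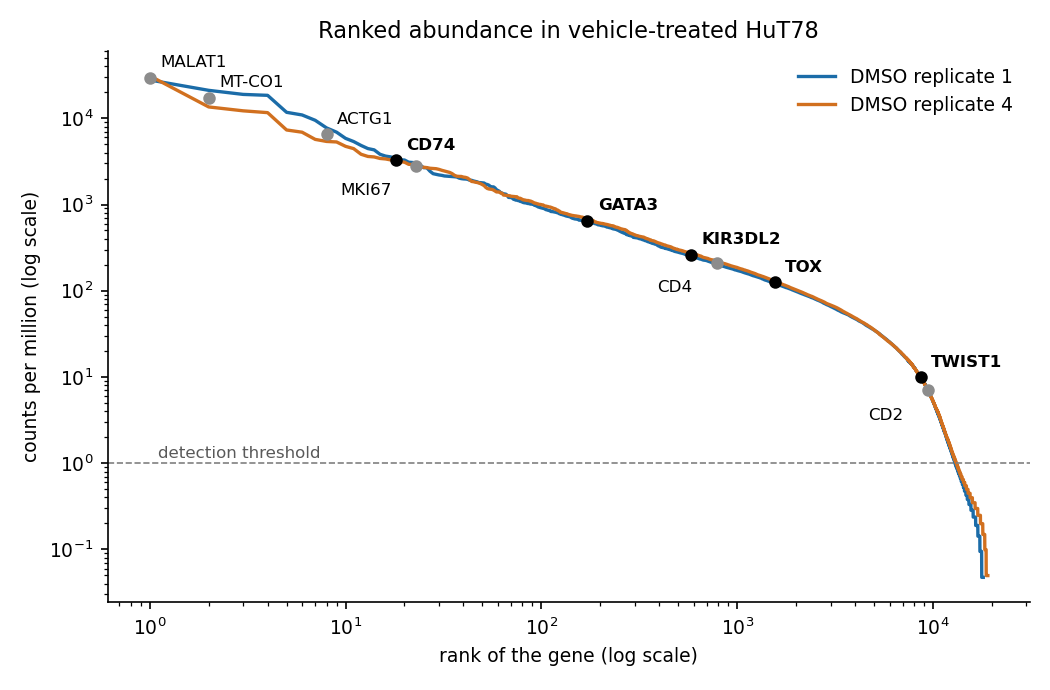
Level in CPM against the rank of the gene, both axes on a log scale, for DMSO replicate 1 (blue) and replicate 4 (orange); points show 5 marker genes (black) and 6 others (grey) at their mean level and rank. CD74 sits near the top of the curve, TWIST1 on its steep lower part, and the libraries part mainly among the first 10 genes.

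Of 24 genes reported as raised in Sezary cells, 18 were detected (75.0%), against 56.7% of all protein-coding genes. The opposite list, of genes reported as low or lost, was detected at the same share, so the share does not set the lists apart. Beyond the 5 markers, GTSF1, a germ line gene of the piRNA pathway, was at 232 and 214 CPM, and MYB, a progenitor factor, at 252 and 188 CPM. ICOS, a costimulatory receptor, and CCR4, a skin-homing chemokine receptor, were lower, at 12.6 and 8.79 CPM and at 11.1 and 4.82 CPM. PLS3 (plastin 3), a frequently used Sezary marker, had 0.142 and 0 CPM. TNFSF11 had no count, and PDCD1, the gene of the PD-1 receptor, had 0.426 and 0.149 CPM.

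Of 16 genes reported as low or lost in Sezary cells, 12 were detected (75.0%). RHOA, a small GTPase, was at 591 and 653 CPM, ARID1A, a chromatin remodeller, at 348 and 458 CPM, and TCF3 at 187 and 228 CPM. DPP4, whose loss from the surface helps to recognise Sezary cells, was at 11.3 and 11.7 CPM. BCL11A, CD7, CDKN2A and CDKN2B had no count. The last pair encodes cell cycle inhibitors that are often deleted in this lymphoma, and both were at 0 in all 13 libraries of the series.

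Killer cell immunoglobulin-like receptors (KIR) are surface receptors that natural killer cells and some T cells use to read class I molecules. Their genes lie side by side on chromosome 19 and are close copies of one another, so the authors' counting could have split or misplaced reads between them, and their levels are uncertain to that degree. Of 8 KIR genes 5 were detected (62.5%, against 56.7% of all protein-coding genes), and 4 of these formed an upper group. KIR3DL2 was at 283 and 240 CPM, KIR2DL3 at 103 and 75.7, KIR2DL1 at 85.1 and 74.9, and KIR2DS4 at 57.0 and 24.7 CPM. The next was KIR2DL4 at 1.99 and 1.89 CPM. KIR3DL1 (0.853 and 0.447 CPM), KIR3DL3 (0 and 0.149) and KIR3DX1 (0 and 0.0497) were below 1 CPM in both libraries. Per length KIR3DL2 (417 and 398 TPM) exceeded KIR2DL3 (180 and 148), KIR2DL1 (141 and 139) and KIR2DS4 (98.1 and 47.8) in both libraries.

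The 250 bases before the start of each KIR gene show how near these copies are. They are shown for KIR3DL2, the most abundant member, and for KIR2DL3 and KIR3DL1, whose windows as placed had the highest identity to it while their levels differ. KIR2DL4, whose window had the lowest identity, is shown too. Sequences are from RefSeq (GRCh38.p14), read in the direction of the gene, with CpG dinucleotides, the sites of DNA methylation, in capitals.
KIR3DL2 (chr19:54850193-54850442, plus strand): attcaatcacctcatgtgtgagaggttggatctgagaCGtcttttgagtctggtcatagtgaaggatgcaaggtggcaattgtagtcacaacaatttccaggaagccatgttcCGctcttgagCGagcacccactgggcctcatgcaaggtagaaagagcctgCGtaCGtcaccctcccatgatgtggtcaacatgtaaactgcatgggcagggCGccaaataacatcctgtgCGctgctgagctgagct
KIR2DL3 (chr19:54738263-54738512, plus strand): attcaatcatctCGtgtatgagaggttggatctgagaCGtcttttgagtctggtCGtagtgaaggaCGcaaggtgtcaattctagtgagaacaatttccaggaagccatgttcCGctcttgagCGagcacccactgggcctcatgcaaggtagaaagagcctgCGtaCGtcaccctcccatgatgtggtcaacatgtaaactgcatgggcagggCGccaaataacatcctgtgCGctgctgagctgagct
KIR3DL1 (chr19:54816218-54816467, plus strand): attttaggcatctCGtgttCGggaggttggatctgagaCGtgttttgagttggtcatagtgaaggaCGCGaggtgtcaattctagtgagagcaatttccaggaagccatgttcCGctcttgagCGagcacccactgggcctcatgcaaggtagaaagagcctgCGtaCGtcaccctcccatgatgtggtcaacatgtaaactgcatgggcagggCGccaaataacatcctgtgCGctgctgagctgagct
KIR2DL4 (chr19:54803360-54803609, plus strand): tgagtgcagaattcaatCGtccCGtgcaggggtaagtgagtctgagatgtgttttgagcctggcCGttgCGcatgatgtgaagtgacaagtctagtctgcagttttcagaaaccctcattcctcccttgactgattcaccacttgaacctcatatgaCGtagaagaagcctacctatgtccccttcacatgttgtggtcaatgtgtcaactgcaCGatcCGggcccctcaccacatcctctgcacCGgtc

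Aligned to KIR3DL2, the KIR2DL3 window had 241 identical bases of 250 aligned columns (96.4%) and the KIR3DL1 window 233 of 251 (92.8%), while KIR2DL4 had 168 of 265 (63.4%). The windows of KIR2DL1 (208 of 276, 75.4%) and KIR2DS4 (209 of 276, 75.7%) end earlier in the shared sequence. Their identity depends on this placement and cannot be ranked against the others. The windows hold 7 CpG dinucleotides in KIR3DL2, 10 in KIR2DL3, 11 in KIR3DL1 and 8 in KIR2DL4. In the reference the KIR3DL1 window was nearly the same as that of KIR3DL2, and KIR3DL1 had a level under 1 CPM in both libraries. The KIR genes and sequences that HuT78 itself carries were not examined, and the cause of the levels was not tested. A run of 68 bases with 3 CpG dinucleotides is common to KIR3DL2, KIR2DL1, KIR2DL3, KIR2DS4 and KIR3DL1, which are 5 of the 7 KIR windows examined. It ends where the windows of KIR2DL1 and KIR2DS4 end, so its length depends on the windows. The run occurred in 5 of 35116 promoters of the RefSeq table, counting either strand. The run was common to the 4 genes of the upper group and to KIR3DL1 alike. Methylation was not measured in these samples.

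Class II antigen presentation, the pathway that shows peptides to helper T cells and which activated human T cells can express, was expressed. Of the 16 genes of the list all were detected, 15 of them in both libraries, against 56.7% of all protein-coding genes detected. CD74 led at 3298 and 3281 CPM, followed by HLA-DRA at 342 and 258 CPM and HLA-DPA1 at 213 and 196 CPM. CIITA, the master regulator of the pathway, was at 104 and 79.0 CPM. The lowest was HLA-DOB, which tempers peptide loading, at 0.0474 and 2.33 CPM. Per length CD74 (mean 3035 TPM) stood well above HLA-DRA (mean 682 TPM), the next gene of the list. Counts of HLA genes are uncertain, since they are close copies and vary between people from the reference.

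Receptors that direct T cells into tissue were detected in 16 of 20 cases, against 56.7% of all protein-coding genes. ITGAL, the alpha chain of LFA-1, was at 414 and 530 CPM, CD44, a hyaluronan receptor, at 402 and 538 CPM, and CCR7, the lymph node homing receptor, at 208 and 135 CPM. Of the receptors linked to skin, CCR4 was at 11.1 and 4.82 CPM and CCR10 at 0.142 and 0.994 CPM. CCR6, CXCR5 and FUT7 had no count, but 69.2%, 88.6% and 58.7% of their exonic bases are shared with other genes in the reference annotation, and the part of this in their zeros was not tested.

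Beside the KIR genes, 8 of 20 natural killer and cytotoxic genes were detected (40.0%), against 56.7% of all protein-coding genes. NKG7, a granule protein, was at 57.9 and 52.2 CPM, PRF1 (perforin) at 49.6 and 65.1 CPM, and CTSW, a granule protease, at 26.7 and 41.1 CPM. GZMA and GZMK were at 11.3 and 19.97 CPM and at 15.02 and 13.1 CPM. The main granzyme of killer cells, GZMB, had 0 and 0.0994 CPM. GZMH, KLRB1 and KLRC1 had no count, and neither did NCAM1 (CD56) or NCR1, the receptors by which natural killer cells are recognised.

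Markers of other cell types were mostly at or near 0. Over 12 lists for other lineages, 34 of 162 genes (21.0%) were detected, against 56.7% of all protein-coding genes, and 88 had no count. In bulk RNA a level in few cells and a low level in all cells cannot be told apart. Of the 162 genes, 28 had counts in replicate 4 alone and 6 in replicate 1 alone. Those counts were low, as in the genes of replicate 4 described above. Over all 45744 genes, 27686 had no count in replicate 1, 26690 had none in replicate 4 and 24679 had none in both.

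Of 18 B cell genes 6 were detected (33.3%), against 56.7% of all protein-coding genes. IGKC, the kappa light chain constant gene, was at 112 and 70.8 CPM, CD79A, a chain of the B cell receptor, at 28.2 and 47.5 CPM, and MS4A1 (CD20) at 17.1 and 10.4 CPM. BLK, a B cell kinase, was at 13.5 and 11.9 CPM. Other genes of the list were absent from the counts. EBF1, PAX5, FCRLA, IGHD and IGHM had no count, and immunoglobulin variable segments had 68 and 73 counts in all over 141 genes, led by IGHV1-24 with 30 and 16. CD79A, MS4A1 and BLK were seen without counts of EBF1 and PAX5, which are factors of the lineage.

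Of 18 myeloid genes 1 was detected (5.56%), against 56.7% of all protein-coding genes. It was ITGAM (1.61 and 1.24 CPM). CEBPA was at 0.758 and 0.696 CPM and LYZ at 0 and 0.348, while CD14, CD163 and CD1C were among 13 with no count. Of 14 erythroid and megakaryocyte genes, EPOR (2.70 and 2.14 CPM) was the 1 detected (7.14%). ITGA2B was at 0 and 0.546 CPM and ALAS2 at 0 and 0.248, and GP9 and HBA1 had no count. No gene of the 8 endothelial genes was detected, with EGFL7 highest at 0.758 and 0.348 CPM, CLDN5 at 0.474 and 0 CPM and KDR at 0 and 0.447, and CDH5, EMCN and TEK without a count. In these myeloid, erythroid and vessel lists no gene exceeded 3 CPM in either library.

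Among genes of solid tissue, 8 of 14 keratinocyte and epithelial genes (57.1%) and 5 of 11 fibroblast genes (45.5%) were detected. The share over all protein-coding genes was 56.7%. ACTA2, smooth muscle actin, was at 632 and 517 CPM, THY1 at 71.6 and 109 CPM, and COL1A1 at 17.0 and 19.6 CPM, but DCN, FAP and POSTN, which fibroblasts express, had no count. ACTA2 is a close copy of the other actins and its counts are uncertain to that degree. KRT8, an epithelial keratin, was at 65.1 and 49.6 CPM, KRT10 at 40.8 and 31.1, and TP63, a factor of skin epithelium, at 26.3 and 40.5 CPM. EPCAM, an epithelial adhesion protein, was at 22.7 and 25.9 CPM. DSG3, FLG and IVL were among 5 keratinocyte and epithelial genes with no count. KRT7 was the highest of 59 keratins at 107 and 52.5 CPM, and 39 keratins had no count.

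Of 12 stem and progenitor genes 4 were detected (33.3%), against 56.7% of all protein-coding genes. GATA2 (14.5 and 9.49 CPM), HOXA9 (4.31 and 2.68) and MEIS1 (3.08 and 1.29) led, and ERG, FLT3 and KIT had no count. SNAP25, a synaptic protein, led the 12 neural genes at 12.7 and 3.08 CPM, followed by MAP2 at 2.99 and 2.09 CPM and RBFOX3 at 0.711 and 2.04, while ELAVL4, GFAP and NES had no count. MITF (1.61 and 0.745 CPM) was the 1 melanocyte gene of 8 detected (12.5%), and without replicate 1 there was none. DCT (0 and 0.397 CPM) and PMEL (0.237 and 0) were under 1 CPM, and KIT, MLANA and SOX10 had no count. None of 13 genes of liver, muscle and pancreas was detected. GCG, APOB and TTR had 0 CPM in replicate 1 and 0.795, 0.447 and 0.298 CPM in replicate 4, and ACTA1, ALB and APOA1 had no count.

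Germ line genes were silent with a few exceptions. LIN28B, which blocks the maturation of let-7 microRNAs, was at 166 and 206 CPM, BRDT, a testis bromodomain protein, at 21.7 and 7.10 CPM, and ZP3 at 2.46 and 7.60 CPM. LIN28B ran from 144 to 236 CPM in the other 11 libraries. DPPA4, LIN28A and NANOG had no count. Of 21 cancer-testis genes GTSF1 and LAGE3 (36.7 and 28.6 CPM) were detected (9.52%), against 56.7% of all protein-coding genes. PRAME was at 0.379 and 0.397 CPM, and 16 had no count, among them CT45A1, CTAG1B and GAGE1.

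**Figure D3:**
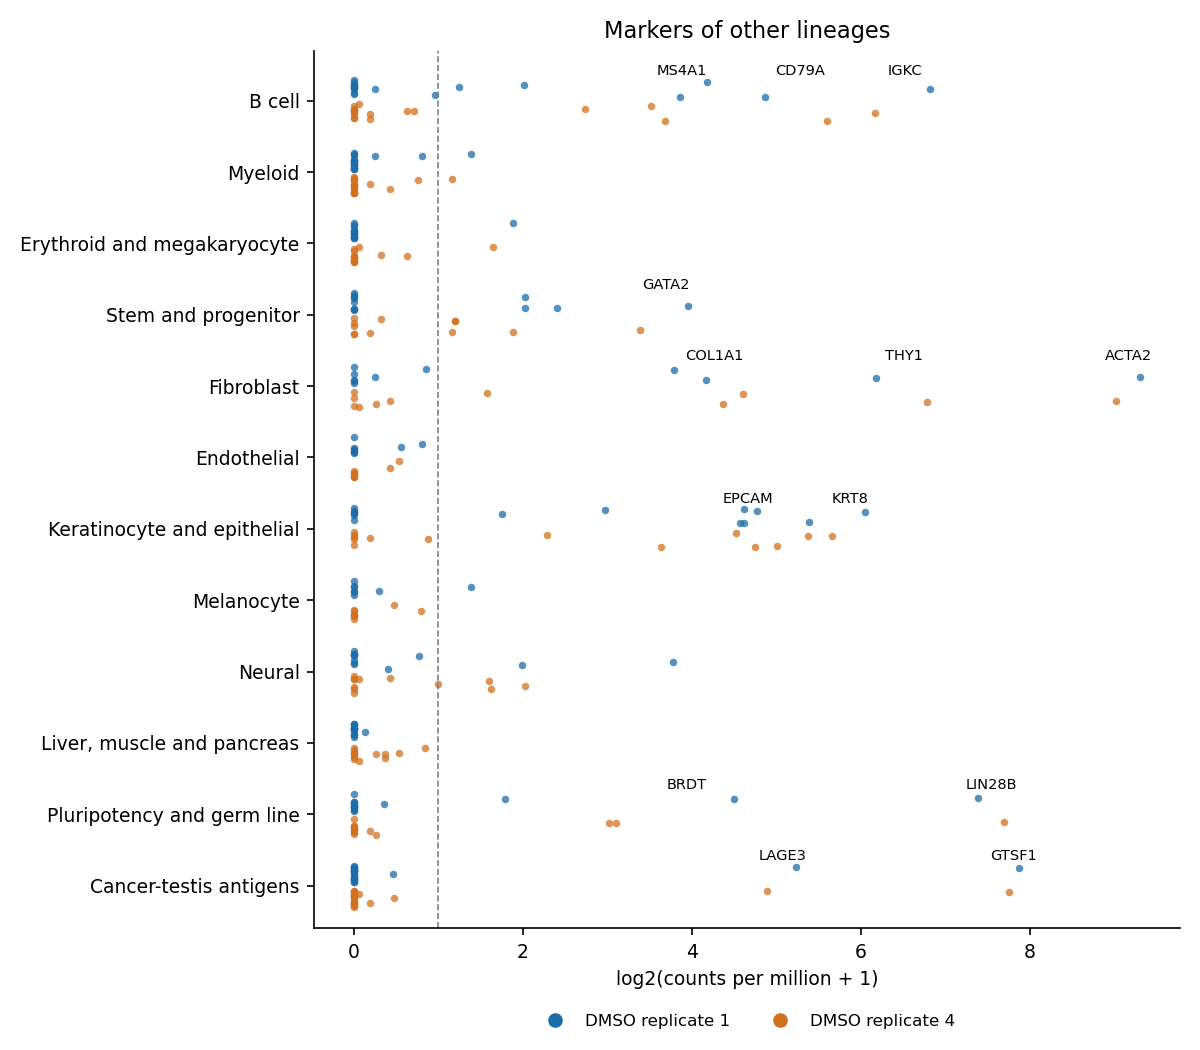
Levels of 12 lists of marker genes for other lineages as log2(CPM + 1), 1 point per gene and library (blue, DMSO replicate 1; orange, DMSO replicate 4), with some members of at least 10 CPM named and a dashed line at 1 CPM. Most points lie at or near 0, and ACTA2, LIN28B, GTSF1 and IGKC lie furthest right.

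Gene families showed the same contrast between expressed and silent members. HOX genes, which pattern the embryo along its axis and stay on in blood cells, were detected in 20 of 39 cases (51.3%). That was near the share over all protein-coding genes (56.7%). HOXB9 (38.9 and 55.1 CPM), HOXA10 (32.0 and 26.5) and HOXA7 (27.4 and 16.2) led. Of 44 forkhead genes 15 were detected (34.1%), led by FOXO3 (170 and 241 CPM), FOXK2 (181 and 183) and FOXJ3 (154 and 132). Of 19 SOX genes SOX4 (109 and 178 CPM) and SOX12 (26.7 and 29.9) were detected (10.5%). Of the 6 GATA factors GATA3, GATA2 and GATA6 (0.853 and 1.44 CPM) were detected. Other families had no detected member, although some members had counts under 1 CPM. These were the 400 olfactory receptors, 95 keratin-associated proteins, 43 beta defensins and 17 type I interferons. TAS2R14 (0.663 and 1.44 CPM) was the 1 bitter taste receptor of 25 that was detected. Of 15 T-box genes EOMES, TBX20 (8.10 and 11.2 CPM), TBX6, TBX19 and TBX1 were detected (33.3%).

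Genes of dividing cells were abundant. All 15 proliferation genes were detected, with a median per length of 223 TPM against 2.55 TPM over all protein-coding genes. MKI67, the Ki-67 antigen of cycling cells, was at 2180 and 3423 CPM, TOP2A, a topoisomerase of mitosis, at 733 and 1113 CPM, and MCM3, a subunit of the replicative helicase, at 676 and 794 CPM. Of 22 genes of cell cycle control and survival 19 were detected (86.4%), against 56.7% of all protein-coding genes. CCND2 (631 and 546 CPM), MYC (477 and 565) and NFKB2 (249 and 306) led, and no gene of the list lacked counts in both libraries. CDK6, the kinase partner of cyclin D2, was at 188 and 256 CPM. RB1, the substrate of that complex, had 0 and 0.397 CPM, and CCND1 had 0.426 and 0.149.

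Enzymes of the classes at which the compounds of the series are aimed were expressed under vehicle, whether or not each is itself a target. Of 17 histone deacetylases and H3K9 methyltransferases 16 were detected (94.1%), against 56.7% of all protein-coding genes. HDAC11 (0.521 and 0.696 CPM) was the exception. HDAC1 was at 398 and 314 CPM, HDAC2 at 223 and 203 CPM, and EHMT2 (G9a) at 86.8 and 86.5 CPM. SUV39H1 was at 34.1 and 42.0 CPM and SUV39H2 at 48.1 and 34.7 CPM. Per length the means of SUV39H1 (33.4 TPM) and SUV39H2 (33.8 TPM) differed by less than the spread between libraries, and HDAC1 (mean 262 TPM) was above both.

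The gene with the most counts was MALAT1, a nuclear noncoding RNA, at 27842 and 31106 CPM. Per length it was at rank 13, behind mitochondrial genes such as MT-CO2 and short noncoding RNAs such as RMRP. It was followed by mitochondrial genes, led by MT-CO1 (21114 and 13554 CPM), a subunit of cytochrome oxidase, and MT-ND5 (18474 and 12213), a subunit of complex I. The top 10 genes took 13.9% and 10.4% of counts, the top 100 30.5% and 26.9%, and the top 1000 60.02% and 58.6%. Without the mitochondrially encoded genes the top 10 took 7.52% on average. Among coding genes of the nucleus, the highest by mean CPM were ACTG1 (5856 and 7325 CPM), GAPDH (4305 and 5697), PTMA (4459 and 5317), EEF1A1 (4846 and 4450) and HSP90AB1 (3646 and 3829). These encode cytoplasmic actin, a glycolytic enzyme, prothymosin, a translation factor and a heat shock protein. Among the next were NCL, HNRNPA2B1, CD74, HSP90AA1, PABPC1, HSPA8, MKI67, ACTB and TUBB, with means from 3430 down to 2555 CPM. CD74, among these genes, is tied to immune cells. Many of the others have processed pseudogenes, near-identical copies that could take some of their reads.

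Division by length changed the leaders. Among the highest coding genes of the nucleus in TPM were HIST1H2BK (6246 and 10119 TPM), FTL (5851 and 8342), ACTG1 (5420 and 7600.0) and HIST1H1E (4387 and 7634). These encode core and linker histones, the ferritin light chain and an actin. Histone genes of the replication clusters, whose RNAs have no poly(A) tail, are short and near-identical, and their counts are uncertain. The top 15 by CPM and by TPM shared 5 genes, and the top 100 shared 54.

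By abundance, 91 genes lay at 1000 CPM or more and took 29.6% and 25.8% of counts, and 1910 genes at 100 to 1000 CPM took 43.1% and 46.3%. A further 6662 genes lay at 10 to 100 CPM, 4414 at 1 to 10 CPM and 7988 below 1 CPM. In all 13077 genes (28.6%) were detected, with 12922 at 1 CPM or more in replicate 1, 13103 in replicate 4 and 12291 in both. The numbers for the single libraries fall within the 12740 to 13359 of the other 11.

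By gene type, protein-coding genes took 95.1% and 94.6% of counts and lincRNAs 3.40% and 3.75%, of which MALAT1 alone made up 82.0% and 82.9%. Of 20124 protein-coding genes 56.7% were detected, of 7747 lincRNAs 5.77% and of 5619 antisense genes 9.66%. The other leading lincRNA was RMRP, the RNA of an RNA-processing enzyme, at 2669 and 2928 CPM, with 98.5% of its bases shared with another gene. NEAT1, the scaffold of paraspeckles, was at 393 and 298 CPM. The antisense type, at 0.620% and 0.617% of counts, was led by AL355075.4 (3074 and 3098 CPM, 68.5% shared) and AC004687.1 (137 and 97.2 CPM). Since the strand setting of the counting is not given in the sources used here, reads of antisense genes and of their partners cannot be told apart.

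Smaller classes were led by few genes. Processed transcripts were led by OIP5-AS1 (201 and 221 CPM) and SNHG29 (209 and 190.0), bidirectional promoter RNAs by TUG1 (120.4 and 115) and NIPBL-DT (25.4 and 19.7), and sense overlapping RNAs by AC004847.1 (132 and 182) and HCP5 (19.001 and 21.1). Sense intronic RNAs were led by AC006064.5 (74.0 and 74.3 CPM), all of whose bases are shared with another gene, and AC092718.4 (19.9 and 12.97). Among small RNAs, RN7SL2, the RNA of the signal recognition particle, was at 723 and 1123 CPM and RN7SL4P at 17.2 and 29.1. SCARNA7 was at 106 and 102 CPM and SNORA73B at 59.6 and 111. RNU1-120P was at 9.38 and 3.08 CPM and RNU5D-1 at 5.78 and 0.745. Small RNAs are shorter than most library fragments, so their levels in such a library depend on its size selection. Transcribed pseudogenes were led by RPL6P27 (177 and 166 CPM) and RPS27AP16 (52.8 and 42.1) among processed copies, GVINP1 (95.3 and 63.8) and AL109918.1 (66.5 and 45.3) among unprocessed ones, and CMAHP (30.4 and 18.7) and AHSA2P (16.9 and 25.4) among unitary ones. TRAV8-6 (90.6 and 146 CPM) and TRAV20 (10.1 and 24.6) led the receptor variable genes.

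**Figure D4:**
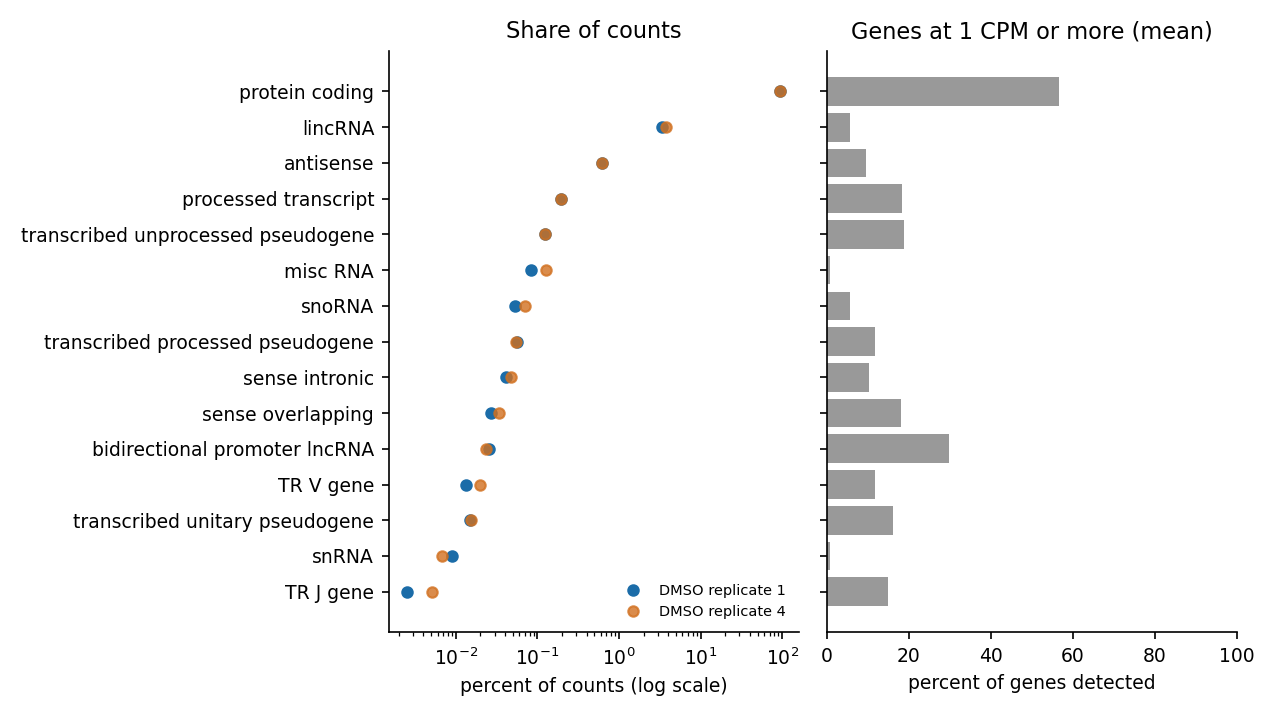
Left, percent of all counts (log scale) in each gene type with at least 10 detected genes, for DMSO replicate 1 (blue) and replicate 4 (orange); right, percent of the genes of that type with a mean of at least 1 CPM. Protein-coding genes take 95.1% and 94.6% of counts, and 56.7% of them are detected, more than of any other type shown.

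Silent genes made up much of the table. No count in either vehicle library was found for 24679 genes (54.0%), among them 5692 protein-coding genes (28.3% of that type). Of these 24679 genes 17696 (71.7%) were at 0 in all 13 libraries. In the other 11 libraries 83 of them, 41 of these protein-coding, reached 1 CPM at least once, and the highest level was 2.41 CPM for KIF17, a neuronal motor protein, in romidepsin replicate 2. In the other direction, none of the 8663 genes with at least 10 CPM under vehicle was at 0 in any other library, and CABP4 (0.729 CPM at its lowest) was the 1 that fell below 1 CPM in any. Shared bases were more frequent among the silent genes, and their part in the zeros was not tested. Of the silent protein-coding genes with a reference length, 665 of 5489 (12.1%) share at least 50% of their exonic bases with another gene, against 213 of 11390 detected ones (1.87%).

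The vehicle libraries were compared gene by gene. Across all 45744 genes, 24679 of them with no count in either library, the log2(CPM + 1) values had a Pearson r of 0.990 and a Spearman rho of 0.895. Over the 13077 detected genes r was 0.973 and rho 0.974, and over the 8663 genes of at least 10 CPM 0.963 and 0.954. These values describe genes within a pair of libraries that share cells and annotation, and genes are not independent replicates. Among the 8663 genes averaging 10 CPM or more, 1307 (15.1%) differed by more than 1.5 times and 222 (2.56%) by more than 2 times, 106 of them higher in replicate 1 and 116 in replicate 4. The median ratio of the larger to the smaller value was 1.47 at 1 to 10 CPM, 1.22 at 10 to 100 and 1.17 at 100 to 1000. The 90th percentile of that ratio was 2.97, 1.64 and 1.47 in the same classes, and 1.63 at 1000 CPM or more.

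Coding genes of the mitochondrial genome differed together. For 12 of the 13 the ratio of replicate 4 to replicate 1 lay between 0.455 and 0.661, while MT-ND6, the 1 coding gene on the other strand of that genome, was at 1206 and 1744 CPM, a ratio of 1.45. The mitochondrial ribosomal RNAs were also higher in replicate 4, at 435 and 1003 CPM for MT-RNR1 and 869 and 1514 CPM for MT-RNR2. Of nuclear coding genes of at least 10 mean CPM, the largest ratios included those of CABP4 (3.46 and 31.0 CPM), NR4A1 (2.99 and 18.6), PTCH1 (9.62 and 42.2), PLA2G6 (6.82 and 24.7) and LONRF1 (12.3 and 42.0), all higher in replicate 4. DIO2 (33.3 and 8.495 CPM), DNAJC5B (37.2 and 9.94), CDH3 (26.0 and 7.10) and AARD (16.4 and 4.82) were higher in replicate 1. NR4A1 is an early response gene of T cell receptor signalling and PTCH1 a Hedgehog receptor. In the other 11 libraries these genes also varied, CABP4 from 0.729 to 26.5 CPM and NR4A1 from 2.61 to 26.1 CPM. With 2 libraries, no test of these differences was made.

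**Figure D5:**
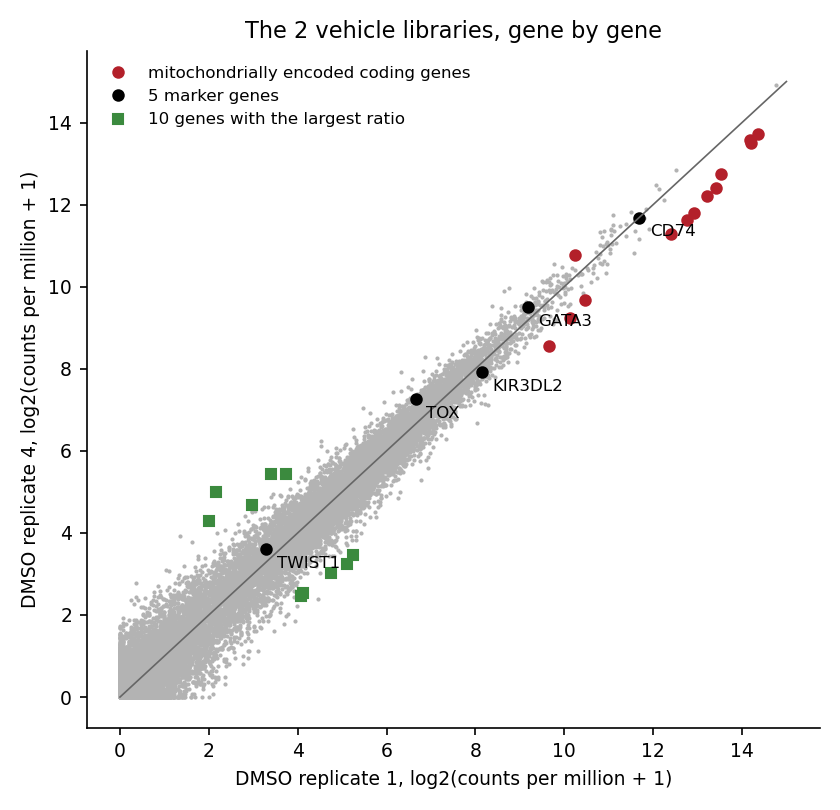
Each gene's level in DMSO replicate 4 against DMSO replicate 1, both as log2(CPM + 1), with the line of equality; red, 13 mitochondrially encoded coding genes; black, 5 marker genes; green squares, the 10 nuclear coding genes of at least 10 CPM with the largest ratio. CD74 lies on the line and TOX (99.8 and 152 CPM) furthest from it among the markers, and 12 of the 13 mitochondrial genes lie below it.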

How the data were processed

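Counts per gene were deposited by the authors as 1 table of raw counts for 13 libraries, made with HTSeq 0.6.1 after bcl2fastq 2.20.0.422 and cutadapt 1.8.1 on build hg19, per the submitters' processing notes. Aligner, annotation release and strand setting: not given in the sources used here. The 2 DMSO columns were used as deposited, and 0 columns belonged to other samples. CPM is the count per 1000000 counts of the library. TPM divides CPM by the length of all exons of the gene in GENCODE release 29 (GRCh38, used for lengths and shared bases only), found for 92.2% of genes and 98.7% of protein-coding genes. TGFB1 and TCL1A were matched by identifier; TRBC1 and PECAM1 were not analysed here. The scripts were tested on simulated data. Alternatives used edgeR 4.0.16 and DESeq2 1.42.0 size factors; the closing section gives their effect. No contrast was tested. Counts of 0 allow up to 3 counts.

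Gene lists and markers were chosen with earlier results of these data known. Named genes are the 15 highest nuclear coding genes, the 2 highest of each gene type with at least 10 detected genes, the 5 markers, the 3 highest members of each list, up to 3 members without a count in alphabetical order, the leading variable segment of each chain, and the 10 genes with the largest ratio between the libraries. Other members were named after their values were seen. Intervals are exact Clopper-Pearson and cover counting error only. Some genes that this rule names are not reported here.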

Additional observations from a re-analysis of the deposited data

How the results depend on the processing

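No paired analysis was possible because the profile is of a single group of 2 libraries and comes from no test. The number of detected genes and of genes with no count kept within 1.5 times of the reported count at every setting tried. The shares of the most abundant genes moved. Without mitochondrially encoded genes the top 10, 100 and 1000 genes took 7.52%, 22.8% and 55.4% of counts, and ranked per length 26.0%, 50.5% and 74.2%. CD74 was at 3259 CPM with TMM, 3267 CPM with DESeq2 size factors and 3630 CPM without mitochondrially encoded genes. With the longest transcript as length, an alternative chosen after seeing the data, KIR3DL2 was at 322 TPM and CD74 at 4424 TPM. Of 182 counts of list members over settings, 9 in 7 lists were over 1.5 times from the reported count, 6 of them at a threshold of 5 CPM, 2 at 0.5 CPM and 1 without replicate 1. CpG content of promoters by abundance was not run, since 76.3% of protein-coding genes had a promoter sequence and at least 80% were required. Depth limits levels under 1 CPM.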
